A study of Homo sapiens with 2 samples.

Results

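The immunoglobulin heavy chain locus IGH on chromosome 14 and the light chain loci IGK on chromosome 2 and IGL on chromosome 22 were examined for binding of KMT2D (MLL4), a histone methyltransferase. Members were the KMT2D peaks whose highest point lay in fixed hg19 windows, from 105.98 to 107.29 Mb for IGH, from 89.1 to 90.28 Mb for IGK and from 22.33 to 23.31 Mb for IGL. These windows held 127 of the 24824 listed peaks, with 42 in IGH, 18 in IGK and 67 in IGL. The choice used position only, and no peak height or score.

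The peaks came from 1 KMT2D chromatin immunoprecipitation library of OCI-LY7, an established human lymphoma line (diffuse large B-cell lymphoma of the germinal centre type) labelled wild type. It was made with an antibody raised in-house against the N-terminus of human KMT2D. An input library of the same line, without antibody, was the other sample, and its values were not analysed here. Both were grown in IMDM with serum and fixed with formaldehyde. With 1 library a condition there was no replicate check and no test, and the sequencing depth is unknown. Intervals below are 95% intervals for counting error over peaks of this list, and say nothing of how another library would vary. They treat each peak as independent, although 84.3% of the members lay within 12.5 kb of another peak, so they may be too narrow. Expression was not measured, so the B-cell identity of the line was not checked against its markers.

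Each locus carries a row of variable (V) segments, joining (J) segments and constant (C) genes, and IGH has diversity (D) segments as well. A developing B cell joins 1 segment of each kind and deletes the DNA between them in most cases, and in IGH a later class switch moves the joined exon next to another constant gene. Known enhancers lie on the constant-region side: Eμ in the intron between J segments and IGHM and a 3′ regulatory region beyond each IGHA gene in IGH, an intronic and further 3′ enhancers in IGK, and a 3′ enhancer beyond the constant genes in IGL. KMT2D is known as a writer of monomethylation at lysine 4 of histone H3, mainly at enhancers.

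Each window was divided into a constant side, which held the 3′ flank, the constant genes and the J segments or the intron next to them, and a variable side, which held the rest. The constant side was the 0.35 Mb at the low-coordinate end of IGH, the 0.08 Mb at the low-coordinate end of IGK and the 0.085 Mb at the high-coordinate end of IGL. These bounds came from the known layout of the loci and not from an annotation of the build. Single peaks could therefore not be assigned to single genes or enhancers. Gene order and names were taken from a RefSeq table of another build, GRCh38.p14, without its coordinates. In that table the constant genes of IGH run from IGHA2 at the low end through IGHE, IGHG4, IGHG2, IGHA1, IGHG1, IGHG3 and IGHD to IGHM beside the J segments.

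In all 3 loci KMT2D peaks were denser on the constant side than on the variable side, and the tallest peak of each locus lay on its constant side. Together the constant sides held 44 peaks in 0.515 Mb, or 85.4 peaks per Mb, and the variable sides held 83 peaks in 2.955 Mb, or 28.1 peaks per Mb. Lengths are those of the reference. Any DNA that joining or class switching deleted in this line was not known, and the densities and their ratios depend on it. The excess was large in IGK, smaller in IGL and uncertain in IGH, by intervals that treat each peak as independent. Pooled over the loci, peaks on the constant side were not clearly taller. Heights, in the authors' units, had a median of 39 (95% interval 33 to 43) on the constant sides and 37 (34 to 48) on the variable sides. The whole list also had a median of 39. These pooled medians mix chromosomes 14, 2 and 22, whose own medians were 40, 36 and 45 and whose lowest listed heights were 19, 17 and 24. IGL gave 51 of the 83 variable-side peaks but 16 of the 44 constant-side peaks.

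**Figure D1:**
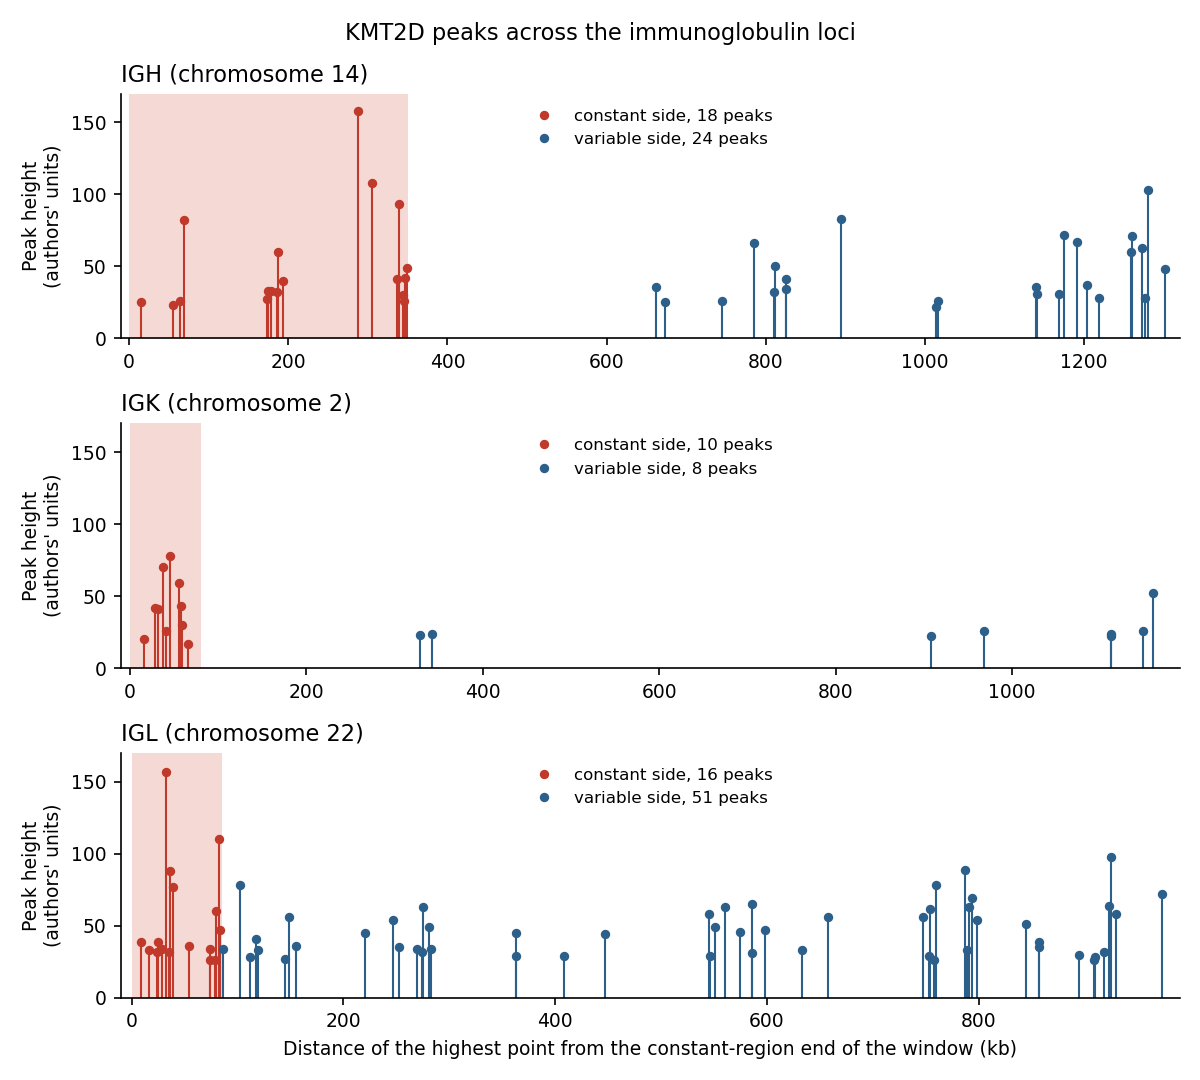
Height of each KMT2D peak in the authors' units (vertical axis) against the distance of its highest point from the constant-region end of the window in kb (horizontal axis), 1 panel per locus; red points and shading mark the constant side and blue points the variable side. The tallest peaks (158 in IGH, 78 in IGK and 157 in IGL) stand on the constant sides, and IGH has no peak between 349.4 and 661.9 kb.

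In IGH the constant side held 18 peaks, or 51.4 peaks per Mb (exact Poisson 95% interval 30.5 to 81.3), and the variable side held 24, or 25 peaks per Mb (16.02 to 37.2). The ratio of constant to variable density was 2.06 (exact conditional 95% interval 1.05 to 3.95). This interval included 1 under 7 of the 9 alternatives for which an interval was computed, so the excess in IGH was not firm at this number of peaks. In bases covered by peaks the ratio was 3.33, with 4.82% of the constant side and 1.45% of the variable side covered. This ratio rested largely on 1 row of 6 peaks at the J end, which made up 65.4% of the covered constant-side bases. Of 8371 tiles of 0.35 Mb laid over chromosomes 1 to 22 and X, 2.45% held 18 peaks or more. Of 3045 tiles of the length of the variable side, 9.29% held 24 peaks or more.

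In IGK the contrast was wider. The constant side held 10 peaks, or 125 peaks per Mb (59.9 to 229.9), and the variable side held 8, or 7.27 peaks per Mb (3.14 to 14.3). The ratio of densities was 17.2 (6.11 to 50.1) and that of covered bases 33.3. The interval lay above 1 under all 8 alternatives that had one. All 10 constant-side peaks belonged to 1 cluster, so intervals that treat peaks as independent are likely too narrow here. Only 0.499% of tiles of 0.08 Mb held 10 peaks or more. The variable side of IGK was close to its chromosome, since chromosome 2 had 7.07 peaks per Mb (6.74 to 7.42) over its whole span, and 37.2% of tiles of its length held 8 peaks or more.

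In IGL both sides were dense. The constant side held 16 peaks, or 188 peaks per Mb (107.6 to 305.7), and the variable side held 51, or 56.98 peaks per Mb (42.4 to 74.9). The ratio was 3.303 (1.76 to 5.89), and in covered bases it was 3.605. Its interval included 1 under 1 of 8 alternatives, the highest-scoring 25% of peaks, which left 4 peaks on the constant side and 11 on the variable side. Tiles as full as these stretches were rare, at 0.0464% of tiles of the length of the constant side and 0.857% of tiles of the length of the variable side.

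**Figure D2:**
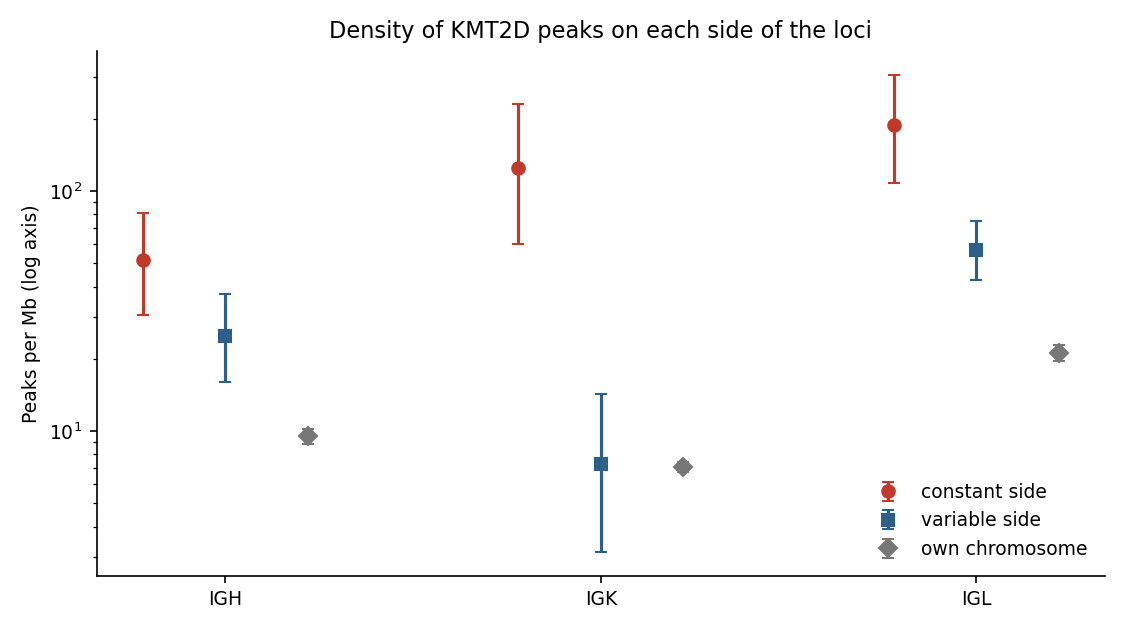
Peaks per Mb on a log axis for the constant side, the variable side and the own chromosome of each locus; bars are exact Poisson 95% intervals, which cover counting error only. The constant side is the highest of the 3 in each locus (51.4 in IGH, 125 in IGK and 188 peaks per Mb in IGL), and the variable side of IGK overlaps chromosome 2.

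Among the constant-side peaks of IGH, the J end of the stretch stood out by width. There, toward the IGHM end of the gene order, a peak at chr14:106317140-106323810 was 6670 bp wide. Whether it lay over IGHM, over the interval next to it or over both was not determined. It was the widest of the 24772 peaks used, ahead of a second of 6305 bp. It was 10.95 times as wide as the median peak of the list and reached a height of 93. Its highest point lay 1.43 kb from its low-coordinate end, at 21.4% of its width, on the far side from the J segments. Once peaks under 500 bp apart were merged it became 8092 bp wide and ranked second of the list, behind a merged peak of 8132 bp on chromosome 10.

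This wide peak belonged to a row of 6 that covered 79.8% of 13.9 kb, from 106316180 to 106330047, and made up 65.4% of all covered bases on the constant side of IGH. Its neighbour on the low side, at chr14:106316180-106316920, had a height of 41. Toward the J segments followed peaks at chr14:106323934-106324272 (height 30), chr14:106324938-106325107 (height 26), chr14:106326600-106327847 (height 42) and chr14:106328148-106330047 (height 49). The last of them was 1899 bp wide, wider than all but 2.74% of the list. Widths in this row were mixed. Of the 6 peaks 3 were wider than 1000 bp, against 23.06% of the list. The pair of heights 30 and 26 had widths of 338 and 169 bp, below the list median of 609 bp.

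The interval between IGHM and the J segments also holds the μ switch region, a tandem repeat of short units at which class switching begins. In the RefSeq table, 4 microRNA genes are the only entries between IGHM and IGHJ6, and their hairpins show what this repeat looks like. They are printed 5′ to 3′ as RNA, with each copy of GAGCU or GGGCU in capitals and all other bases in lower case.
MIR4539: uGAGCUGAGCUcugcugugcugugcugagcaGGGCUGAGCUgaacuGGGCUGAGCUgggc
MIR4507: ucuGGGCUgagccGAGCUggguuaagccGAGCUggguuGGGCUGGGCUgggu
MIR4538: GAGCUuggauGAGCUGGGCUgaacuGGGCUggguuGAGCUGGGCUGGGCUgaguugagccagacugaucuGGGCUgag
MIR4537: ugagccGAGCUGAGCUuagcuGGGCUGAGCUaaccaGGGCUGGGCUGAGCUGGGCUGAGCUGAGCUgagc
These hairpins, credited to RefSeq on GRCh38.p14 (chromosome 14, minus strand), hold 5 to 10 copies of the pair of motifs, counted on the RNA strand. The motifs do not overlap each other. Of 1562 hairpins in the table, 24.97% hold at least 1 copy, and these 4 are the 4 that hold 5 or more. In the table the spans of MIR4507 and MIR4538 overlap, so they share some of their bases. The peak list does not say how many reads could be placed uniquely in this repeat. Whether any of the hairpins lies under a listed peak was not determined, because the builds differ.

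The tallest peak of IGH stood alone in the same constant stretch, at chr14:106267228-106268162, with a height of 158 and a width of 934 bp. It was 3.95 times the median of chromosome 14 and ranked 83rd by height in the list. A second lone peak at chr14:106283982-106285492 had a height of 108 and a width of 1510 bp. Neither had a neighbour within 12.5 kb. They lay 62 and 45 kb from the J boundary, so the tallest peak of IGH was not in the row at the J end.

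Farther from the J segments the constant side of IGH held 2 looser groups. The middle group had 6 peaks from 106152986 to 106172937, of which the tallest reached 60 at chr14:106167066-106167669 and the next 40 at chr14:106172310-106172937. The others, among them chr14:106154221-106154436 and chr14:106157732-106157897 at 33 each, had heights of 27 to 33 and widths of 164 to 215 bp. In the 3′ flank beyond IGHA2, a peak at chr14:106048084-106048760 reached 82, and the remaining 3 had heights of 23 to 26. Between these groups lay 104.2 kb without a listed peak, and between the middle group and the tallest peak 94.3 kb.

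On the constant side of IGK all 10 peaks joined into 1 cluster when peaks at most 12.5 kb apart were stitched. It ran from 89115410 to 89166389 over 50.98 kb. In the 3′ flank the peak at chr2:89145122-89145883 reached 78, or 2.17 times the chromosome 2 median, and the peak at chr2:89137599-89138264 had a height of 70. The flank also held peaks at chr2:89127992-89128481 (height 42), chr2:89131177-89132451 (height 41), chr2:89141062-89141220 (height 26) and chr2:89115410-89115525 (height 20). The taller pair stood 7.56 kb apart, with the peak of height 26 between them.

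The stretch with the constant gene IGKC and the J segments held the other 4 peaks of that cluster. They lay at chr2:89154904-89155759 (height 59), chr2:89156735-89158061 (height 43), chr2:89158935-89159173 (height 30) and chr2:89166285-89166389 (height 17). Heights in this cluster thus spanned 17 to 78, and the lowest was also the lowest of all 127 members and the lowest listed on chromosome 2. The widest of the 10 was the peak of 1326 bp in the stretch with IGKC. Of 4962 clusters in the whole list, 2.04% had 10 peaks or more.

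On the constant side of IGL the peaks formed a pair of clusters. The larger held 9 peaks from 23270765 to 23301757, in the 3′ flank beyond the constant genes. Its tallest, at chr22:23277116-23278556, had a width of 1440 bp and reached 157, or 3.49 times the chromosome 22 median. Peaks at chr22:23273586-23274846 (height 88) and chr22:23270765-23271738 (height 77) stood beside it on the side of the constant genes. The remaining 6 had heights of 32 to 39, the taller of them 39 at chr22:23284647-23285353 and at chr22:23301357-23301757 and 34 at chr22:23281649-23281864. Over its 30.99 kb the cluster was 18.2% covered.

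The other cluster lay where the V segments give way to IGLL5 and the J and C genes, from 23223145 to 23236365, and held 7 peaks. The tallest, at chr22:23226984-23227804, had a height of 110, and the peaks beside it at chr22:23229741-23230491 and chr22:23226136-23226578 had heights of 60 and 47. A peak at chr22:23235823-23236064 had a height of 34. The low-coordinate peak of this cluster fell on the variable side by 1.5 kb, so the bound between the sides cut through the cluster. Between both clusters, in the stretch with the constant genes, stood 1 lone peak of height 36 at chr22:23256119-23256524.

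**Figure D3:**
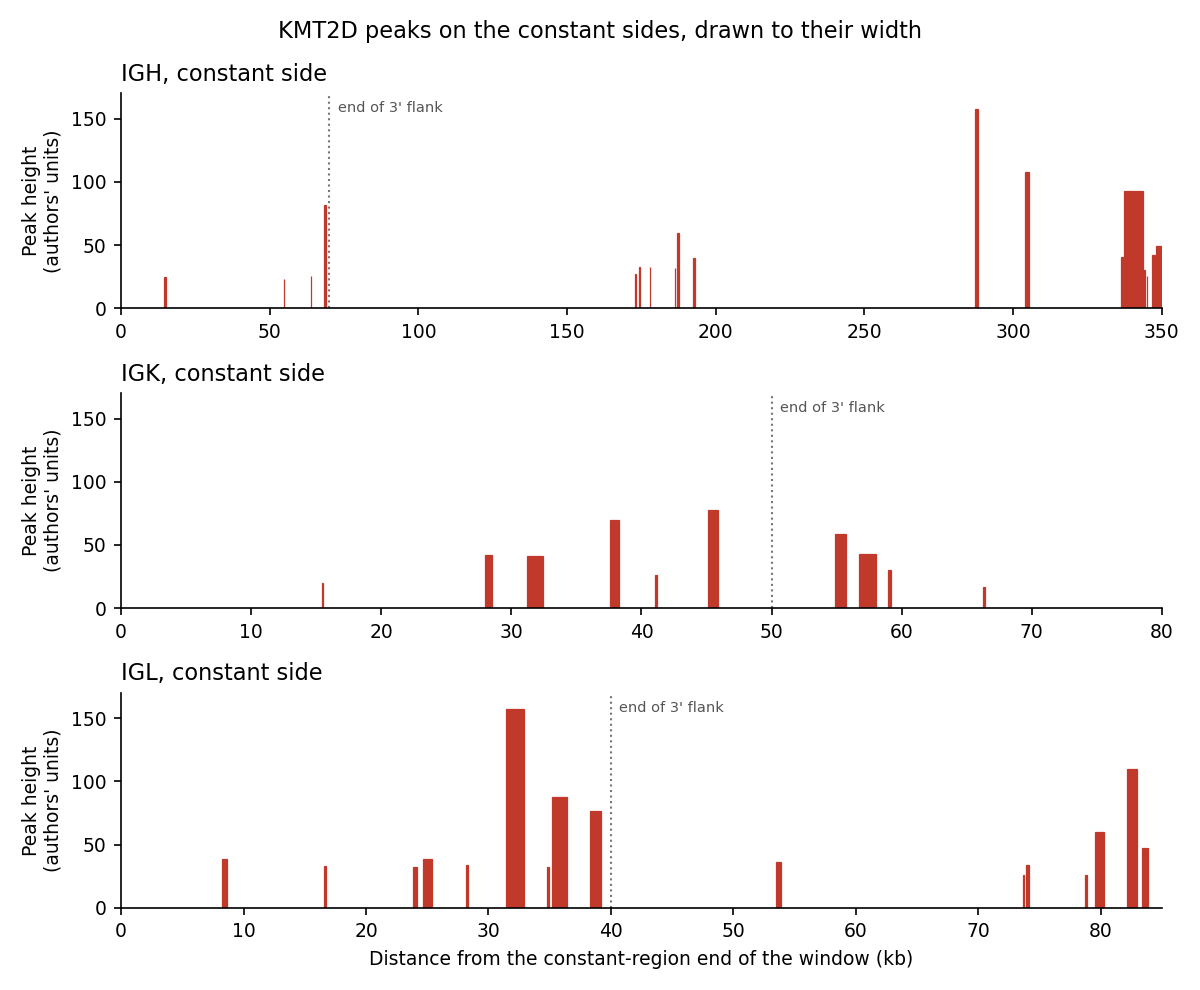
Peaks of the constant sides drawn from start to end (horizontal axis, distance from the constant-region end of the window in kb) and to their height in the authors' units (vertical axis); the dotted line is the end of the 3′ flank. The 6670 bp peak of IGH is the broad block at a height of 93 near the J end, and the tall peaks of IGK (78 and 70) and IGL (157, 88 and 77) lie in the 3′ flank, while the IGL peak of height 110 lies at the other end of its constant side.

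On the variable side of IGH the peaks were unevenly spread. No peak had its highest point in the stretch taken as D segments, from 350 to 420 kb, or over the V segments nearest to it. Only the last 47 bases of the 1899 bp peak crossed the 350 kb bound. That bound was rounded, so those bases were not assigned to D or J segments. The interval from 106330047 to 106641865, which spans 312 kb, was empty. Of 821 intervals between neighbouring peaks on chromosome 14, 6.46% were at least as long, and the median was 21.1 kb. The list gives no value for copy number or for how well reads could be placed, and the depth is unknown, so an empty stretch cannot be called unbound.

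The taller peaks of this side lay toward the far, distal end of the V segments. A cluster of 5 peaks from 107238773 to 107260132 held the tallest, at chr14:107259051-107260132 with a height of 103, and the peak of height 71 at chr14:107239484-107240076. It also held the widest of the variable sides, 2620 bp at chr14:107251348-107253968, with a height of 63. Of the other named peaks, a lone one at chr14:106873249-106874032 had a height of 83. Those at chr14:107154341-107155339 and chr14:107170087-107170736 had heights of 72 and 67.

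The variable side of IGK held 8 peaks, of which 7 had heights of 22 to 26. The exception, at chr2:90259436-90260279 near the distal end of the window, had a height of 52 and a width of 843 bp. The next by height were 26 at chr2:90067917-90068154 and at chr2:90248631-90249118, and 24 at chr2:89442589-89442891 and at chr2:90211485-90211621. The proximal V segments held 2 peaks and the distal V segments, which lie in inverted copy, held 6. The 565 kb between 89442891 and 90007564 had no peak and include a stretch that is unassembled in hg19. Leaving 0.19 Mb for that gap out of the length gave a density ratio of 14.2 (5.05 to 41.5).

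The variable side of IGL held 51 peaks, and no interval between them exceeded 98.1 kb. Of these, 44 were in clusters and 7 stood alone. The clusters held 2 to 6 peaks, apart from the cluster of 7 shared with the constant side. The tallest, at chr22:22384819-22385773 with a height of 98, belonged to a cluster of 6 near the distal end. The next, at chr22:22522153-22523166, had a height of 89. Peaks at chr22:22549632-22550858 and at chr22:23207763-23208477 both had a height of 78. The fifth, at chr22:22336831-22337553, had a height of 72 and was the first inside the window. This side also holds genes that are no V segments. In gene order from TOP3B to IGLC7, a range that runs on into the constant side, the RefSeq table lists 7 protein-coding genes. They include TOP3B itself and IGLL5, which was counted above with the J and C genes. Others are VPREB1, part of the surrogate light chain of B-cell precursors, the zinc-finger genes ZNF280A and ZNF280B, and PRAME, a tumour antigen. Peaks were not divided between these genes and V segments.

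**Figure D4:**
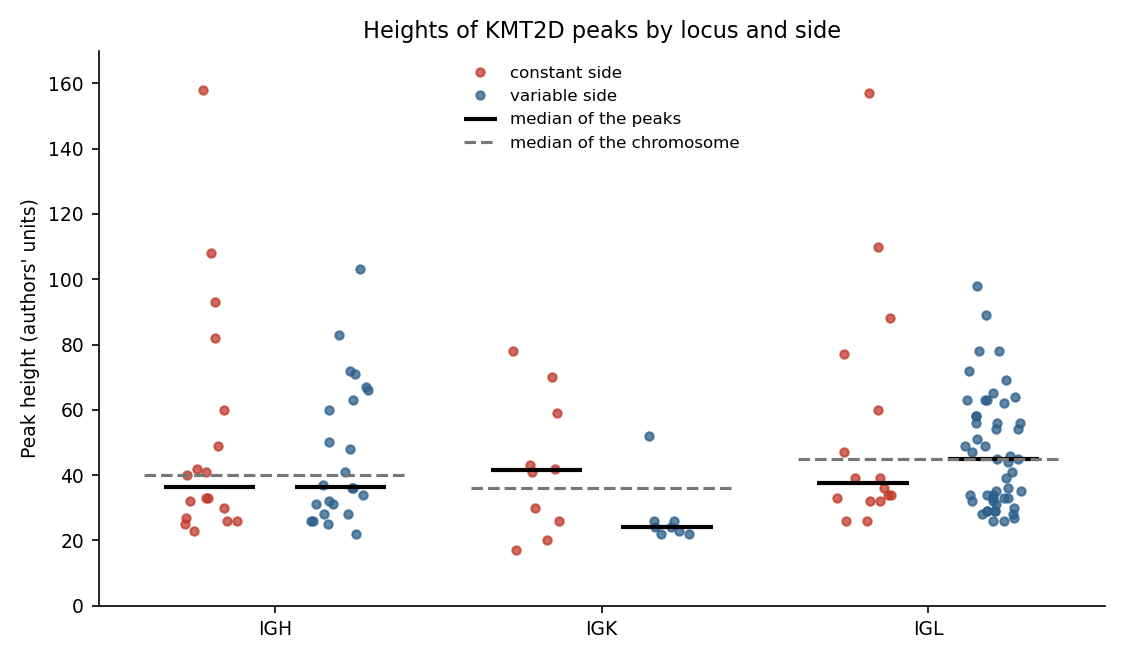
Height of each peak in the authors' units by locus, constant side left of variable side; black bars are medians of the peaks and dashed lines the median of the chromosome. In IGK the medians are 41.5 on the constant side and 24 on the variable side, in IGH both are 36.5, and in IGL the constant side has 37.5 and the variable side 45.

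In IGH and IGL median heights did not follow density, while in IGK the denser side had the higher median. The median height in IGH was 36.5 on the constant side (27 to 60) and 36.5 on the variable side (31 to 63). In IGK it was 41.5 (20 to 70) on the constant side and 24 (22 to 52) on the variable side. In IGL it was 37.5 (32 to 77) on the constant side and 45 (34 to 54) on the variable side. The intervals overlapped in each locus. At least 1.5 times the median of their own chromosome was reached by 12 of 44 constant-side peaks (27.3%) and 14 of 83 variable-side peaks (16.9%), against 25.8% of all peaks in the list. The constant sides were thus near the background by this measure. By locus, this height was reached by 5 of 18 constant-side and 8 of 24 variable-side peaks in IGH, by 3 of 10 and 0 of 8 in IGK, and by 4 of 16 and 6 of 51 in IGL. The pooled order therefore did not hold in IGH. Heights of 80 or more were found for 7 of 44 constant-side peaks (15.9%) and 4 of 83 variable-side peaks (4.82%), against 10.4% of all peaks in the list. Both leading peaks in each locus, 158 and 108 in IGH, 78 and 70 in IGK, and 157 and 110 in IGL, were on the constant side.

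Median widths in the loci were below that of the list, though the interval of the constant sides included the list median. The median width was 449.5 bp on the constant sides (238 to 706 bp), 361 bp on the variable sides (267 to 550 bp) and 609 bp over the list. Widths of at most 200 bp were found for 29.5% of constant-side peaks, 26.5% of variable-side peaks and 21.04% of the list. In adjoining windows of equal length the median width was 470 bp beside IGH, against 464 bp within it. Beside IGL it was 460 bp on the constant side and 712 bp on the V-segment side, against 400 bp within. On the low-coordinate side of IGK it was 1061 bp, against 270 bp within, and the 1 peak on the other side had 433 bp. Clustered peaks made up 84.3% of the members and 63.4% of the list. Of the members, 0 were listed at minus infinity for the authors' significance value, against 30 peaks of the whole list.

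**Figure D5:**
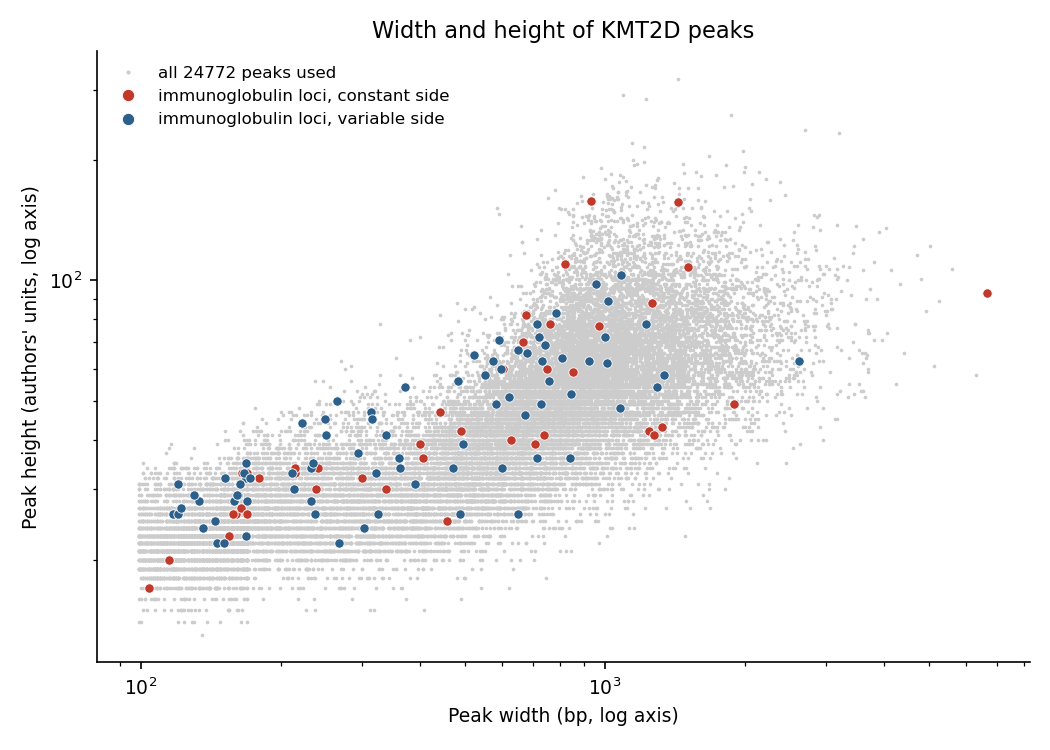
Height in the authors' units against width in bp, both on log axes, for all 24772 peaks used (grey) and for peaks of the constant sides (red) and variable sides (blue) of the immunoglobulin loci. The red point farthest to the right is the 6670 bp peak of IGH, and the other members lie within the cloud of the list.

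As whole windows, all 3 loci were denser than their chromosomes. IGH had 32.1 peaks per Mb (23.1 to 43.3) and chromosome 14 had 9.502 (8.86 to 10.2). IGK had 15.3 peaks per Mb (9.04 to 24.1) and chromosome 2 had 7.07. IGL had 68.4 peaks per Mb (52.98 to 86.8) and chromosome 22 had 21.2 (19.6 to 22.8), so that 9.397% of the peaks of chromosome 22 lay in IGL. Among tiles of the same length over the genome, 4.49% held as many peaks as IGH, 19.5% as many as IGK and 0.235% as many as IGL. The chromosome values include the loci themselves.

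Adjoining windows of equal length gave a closer background. On the low-coordinate side of IGH there were 22.14 peaks per Mb (14.8 to 31.8), an interval that overlaps that of IGH. The peaks of chromosome 14 end inside the IGH window, so no window beyond it was used. Beside IGK the adjoining windows had 7.63 (3.49 to 14.5) and 0.847 peaks per Mb (0.0215 to 4.72). The latter window, at the high-coordinate end, held 1 peak. Any bases in it that are unassembled in hg19 were left in its length, so its density may be understated. Beside IGL the adjoining windows had 17.3 (10.1 to 27.8) on the V-segment side and 44.9 (32.6 to 60.3) on the constant side. The dense stretch of IGL therefore had a dense neighbour on 1 side only, and that neighbour's interval overlapped the interval of IGL.

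The windows' ends did not cut through rows of close peaks. The members nearest the ends were 7.12 to 20.4 kb inside, with heights of 20 to 72. The nearest peaks outside were 22.7 to 169.8 kb away, with heights of 22 to 79. They lay at chr14:105955973-105958155 (height 79), chr2:89065670-89065774 (height 22), chr2:90449574-90450007 (height 58), chr22:22307171-22307380 (height 33) and chr22:23376792-23377695 (height 79).

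The T-cell receptor loci, which have a like layout of segments and constant genes and which B cells do not use, held fewer peaks per Mb when pooled. The ends of their windows were set from the known layout and not from an annotation, and the densities depend on them. The immunoglobulin windows together had 36.6 peaks per Mb (30.5 to 43.5), and the windows of TRA with TRD, TRB and TRG had 13.04 (8.07 to 19.9), a ratio of 2.81 (1.76 to 4.69). Locus by locus the order was not uniform. IGL with 68.4 and IGH with 32.1 peaks per Mb lay above TRA with TRD at 13.8 (7.36 to 23.6), TRB at 9.43 (3.06 to 22.02) and TRG at 21.4 (4.42 to 62.6), which rested on 3 peaks. The interval of IGH overlapped those of TRA with TRD and of TRG, and the interval of IGL overlapped that of TRG. IGK with 15.3 lay below TRG, and its interval overlapped those of all 3. The T-cell receptor loci nevertheless held tall peaks. The tallest in TRA with TRD reached 187 at 4.7 kb from the constant-gene end of its window, and the tallest in TRB reached 137 at 13.2 kb from that end. The next tallest peaks there had heights of 42 and 46. The tallest in TRG had a height of 30. Peaks also crowded toward that end. The last 100 kb held 6 of 13 peaks in TRA with TRD, a window of 0.94 Mb, and 4 of 5 in TRB, a window of 0.53 Mb. TRG, at 0.14 Mb, was too short for this count. Neither tall single peaks near the constant end nor a greater density of peaks there was therefore particular to the loci that B cells use.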

How the data were processed

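The authors deposited 1 list of KMT2D peaks with 11 columns and no header, and the meaning of each column was read from its values. The deposited signal column was read as peak height, and 2 score columns hold a negative significance value that resembles the log10 of a p-value and a positive score that rises with height. A deposited percent column gives the place of the highest point within the peak. Their scales are not stated. The submitters' processing notes name CASAVA 1.8.2 and the build hg19. Which aligner, peak caller and threshold were chosen, and how the input entered, is not given in the sources used here. Whether positions count from 0 or 1 is not stated either.

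All 24772 peaks of the autosomes and chromosome X entered. Densities have exact Poisson intervals, ratios of densities exact conditional intervals and medians order-statistic intervals, at 95%. Tiles were laid end to end from the first peak of each chromosome. No p-value was computed. Every constant-side peak was to be named where there were 10 or fewer, otherwise the 10 tallest, the 5 tallest of each variable side, the peaks nearest each window end and the largest cluster; further peaks were named after their values were seen. Alternatives were cuts on score and height, merging under 500 bp, membership by overlap, covered bases, shifted bounds, sides without the flank, the D stretch or the unassembled gap, and other stitching distances. The members, bounds and lists were chosen with earlier results of these data known. Functions were tested on simulated data. Calculations ran in Python 3.11.15 with scipy 1.17.1, numpy 2.4.6 and pandas 2.3.3, and plots in matplotlib 3.10.9. Sequence of the peaks was not used here, for want of a genome of their build.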

Additional observations from a re-analysis of the deposited data

How the results depend on the processing

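A value counts as moved when it left its own counting interval or, for numbers of clusters and differences of medians, changed by over 1.5 times or in sign. Of 55 alternative values 49 stayed and 6 moved. The ratio of constant to variable density lay above 1 in each locus under each alternative run, from 1.43 to 2.06 in IGH, from 14.2 to 55 in IGK and from 2.63 to 3.83 in IGL. The ratio of covered bases was 3.33 in IGH, 33.3 in IGK and 3.605 in IGL. In IGH 65.4% of the covered constant-side bases came from 1 row of 6 peaks. The lowest IGH value came from moving the bound by 0.01 Mb into the constant side, which left 14 peaks there and 28 on the variable side. Among the highest-scoring 50% of peaks the IGK ratio was 55 (5.44 to 2709), with 4 peaks on the constant side and 1 on the variable side, and densities fell by construction to 17.6 peaks per Mb in IGH, 4.24 in IGK and 33.7 in IGL. Among the highest-scoring 25% no peak was left on the variable side of IGK, so that ratio could not be given. The difference of median heights in IGH, constant minus variable, was 0 over all peaks, 1.5 at a minimum height of 26 and -6 after merging; these alternatives were chosen after seeing the data, and the cause was not tested. No paired analysis was possible because there was 1 library in each group and no test. The depth of the library is unknown.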

Other observations

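Peaks of the loci were also set beside peaks of like width on the rest of the same chromosome, a comparison chosen after the values were seen. Among peaks of 401 to 800 bp the median height was 60 in IGH (13 peaks), against 40 on the rest of chromosome 14 (227 peaks, interquartile range 34 to 48). In that class it was 56 in IGL (20 peaks), against 47 on the rest of chromosome 22 (219 peaks, 40 to 58), and 56 in IGK (4 peaks), against 37 on the rest of chromosome 2 (437 peaks, 31 to 46). Of these peaks, 8 of 13 in IGH, 14 of 20 in IGL and 3 of 4 in IGK exceeded the median of the rest. Among the widest peaks, over 800 bp, the median was 72 in IGH (9 peaks), against 63 on the rest of chromosome 14 (interquartile range 51 to 83). In IGL it was 77 (13 peaks), against 69 on the rest of chromosome 22 (59 to 86). The median of the rest was exceeded by 5 of these 9 peaks in IGH and 7 of these 13 in IGL. In that class the 4 of IGK had a median height of 47.5, against 62 on the rest of chromosome 2 (647 peaks, 49 to 77), and 0 of them exceeded that median. In the narrowest class, up to 200 bp, the medians were 28 in IGH and 25 on the rest of chromosome 14, 22 and 22 for IGK and chromosome 2, and 29 and 29 for IGL and chromosome 22. From 201 to 400 bp they were, in the same order, 33 and 28, 26 and 25, and 34 and 35.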
